A study of Mus musculus with 9 samples.

Results

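The 10 genes described here encode proteins of the BCL2 family that keep cells alive or lead them to apoptosis: Bcl2, Bcl2l1, Mcl1, Bcl2a1b, Bax, Bak1, Bcl2l11, Bbc3, Pmaip1 and Bid. They were taken by symbol from an expression table of 46517 genes, and each symbol matched 1 row. RNA sequencing was done on total RNA of splenocytes, per the labels' protocols, and 9 libraries are labelled as spleen or lymph node. They fall into 3 groups, all of strain C57BL/6 and all older than 18 months: 2 lymph nodes of plckGAPDH mice (animals 455 and 508), 4 spleens of plckGAPDH mice (animals 343, 508 and 547 and 1 spleen whose column gives no animal number) and 3 spleens of wild-type (WT) mice (numbers 1, 4 and 5). plckGAPDH mice carry a Gapdh transgene driven by the Lck promoter, which is active in T lineage cells, and the labels describe them as developing tumours. The library preparation is stranded.

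Animal 508 gave both a spleen and a lymph node, and the unnumbered spleen could be matched to its group but to no animal. P-values therefore rest on the spread between samples within groups, not between animals known to be separate. In the fit with lymph nodes, both samples of animal 508 were treated as independent. The WT spleens also entered the estimate of the spread there. Values are FPKM, fragments per kilobase of transcript and per a fixed number of counted fragments, so levels of different genes can be compared per length. Estimated depth was 23560000 to 33820000 fragments per library.

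Proteins of the BCL2 family decide at the outer mitochondrial membrane whether a cell dies. The survival proteins BCL2, BCL-xL (from Bcl2l1), MCL1 and A1 (from the Bcl2a1 genes) hold the pore formers BAX and BAK (from Bak1) in check. The so-called BH3-only proteins BIM (from Bcl2l11), PUMA (from Bbc3), NOXA (from Pmaip1) and BID bind the survival proteins or activate the pore formers. In lymphocytes BCL2 and MCL1 keep resting and activated cells alive, BIM removes lymphocytes that have lost survival signals, and PUMA and NOXA are classic targets of p53.

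The libraries differed in cell content, which touches several of the values below. Summed FPKM of 7 B cell markers ran from 371 to 1779, and that of 7 T cell markers from 109 to 676. The sum of 8 erythroid markers was 74191 in WT spleen 5 and at most 2203 in the other 8 libraries. That of 8 neutrophil markers was 3372, 5.5 and 555 in WT spleens 1, 4 and 5. It was 576 to 1348 in the plckGAPDH spleens and 42.9 and 55.3 in lymph nodes 455 and 508. WT spleen 4 thus lay below both nodes in this sum, and also in the erythroid sum (1.93 against 5.08 and 7.06). The sum of 6 plasma cell markers was 2072 and 1938 in the lymph nodes and 3922 in plckGAPDH spleen 508, against 56.6 to 296 in the other 6 libraries. No listed marker was at 0 in all libraries. In bulk RNA, fewer cells of a type cannot be told apart from less RNA per cell.

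Mouse A1 is encoded by several near-identical genes on chromosome 9, so the member Bcl2a1b has to be read with its paralogues. The start of the coding sequences is shown because it holds most of the coding positions at which the genes differ. Differences in the untranslated parts were not counted. These are the first 100 coding bases, 5′ to 3′, from the GENCODE M21 transcripts, with capitals at the 7 positions where the 3 genes are not all alike.
Bcl2a1b: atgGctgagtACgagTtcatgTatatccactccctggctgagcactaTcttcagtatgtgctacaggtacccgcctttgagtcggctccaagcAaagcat
Bcl2a1a: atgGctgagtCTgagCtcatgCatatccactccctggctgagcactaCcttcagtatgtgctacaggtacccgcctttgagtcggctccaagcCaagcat
Bcl2a1d: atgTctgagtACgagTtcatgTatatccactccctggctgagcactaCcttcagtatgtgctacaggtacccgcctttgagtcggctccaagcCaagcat
Over the whole coding sequence of 519 bases, 12 positions differed among the 3 genes, and Bcl2a1b was identical to Bcl2a1a at 97.9% and to Bcl2a1d at 98.8% of positions. Of all 75-base windows of the Bcl2a1b transcript, as long as 1 sequencing read, 43.5% were also found without a mismatch in a paralogue. The share was 55.2% for Bcl2a1a and 67.6% for Bcl2a1d. Values of single Bcl2a1 genes are therefore uncertain, since reads from these windows can be split among them.

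The regions around the annotated start were also much alike. The sequences from RefSeq (build GRCm38.p6) reach from upstream of the annotated start into the first exon, and they are shown because 2 of these genes followed each other closely across the libraries. Only the part that the windows share is printed, 5′ to 3′ on the gene's strand: chr9:89199023-89199278 (plus strand) for Bcl2a1b, chr9:88956714-88956969 (plus strand) for Bcl2a1a and chr9:88731801-88732050 (minus strand) for Bcl2a1d. Capitals mark bases that differ from Bcl2a1b.
Bcl2a1b promoter: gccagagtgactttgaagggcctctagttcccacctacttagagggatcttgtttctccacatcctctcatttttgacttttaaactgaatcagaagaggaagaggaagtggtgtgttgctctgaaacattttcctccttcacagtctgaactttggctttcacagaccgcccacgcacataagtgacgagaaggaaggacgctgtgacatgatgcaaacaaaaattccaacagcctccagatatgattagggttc
Bcl2a1a promoter: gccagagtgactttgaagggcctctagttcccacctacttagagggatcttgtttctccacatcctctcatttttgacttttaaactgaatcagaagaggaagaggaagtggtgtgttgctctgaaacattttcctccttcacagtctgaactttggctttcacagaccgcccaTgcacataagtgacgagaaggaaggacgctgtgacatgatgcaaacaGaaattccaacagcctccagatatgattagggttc
Bcl2a1d promoter: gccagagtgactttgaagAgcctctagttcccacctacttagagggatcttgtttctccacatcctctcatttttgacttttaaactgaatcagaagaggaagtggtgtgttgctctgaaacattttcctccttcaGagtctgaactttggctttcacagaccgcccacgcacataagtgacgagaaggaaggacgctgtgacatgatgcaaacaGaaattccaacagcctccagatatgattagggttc
Identity with the Bcl2a1b stretch was 99.2% for Bcl2a1a and, with the bases that Bcl2a1d lacks counted as differences, 96.5% for Bcl2a1d. Bcl2a1d, the less alike in this stretch, was the gene that followed Bcl2a1b closely (Pearson correlation 0.933, against 0.434 for Bcl2a1a). In the coding sequence Bcl2a1d was instead the more alike, at 98.8% against 97.9% for Bcl2a1a. The genes also share reads, which can enter both correlations. A link between these sequences and the levels was not tested.

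Mcl1 was the most abundant member in 8 of the 9 libraries and took 26.2% to 55.8% of the summed FPKM of the 10 genes. The exception was the unnumbered plckGAPDH spleen, where Bcl2a1b was at 111 FPKM and Mcl1 at 94.7 FPKM. Bax had rank 2 in lymph node 508 and rank 3 in the other 8 libraries. Bcl2l1, Bcl2l11, Bbc3 and Pmaip1 were mostly at the low end, with medians over the 9 libraries of 6.08, 5.42, 4.83 and 7 FPKM. Across libraries the members varied between 2.59-fold (Bax) and 5.66-fold (Bcl2). Bbc3, the scarcest member, still rested on at least 15 estimated fragments per library, counted on its shortest annotated coding transcript, and Bcl2a1b, with a single transcript, on 371 to 1752.

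**Figure D1:**
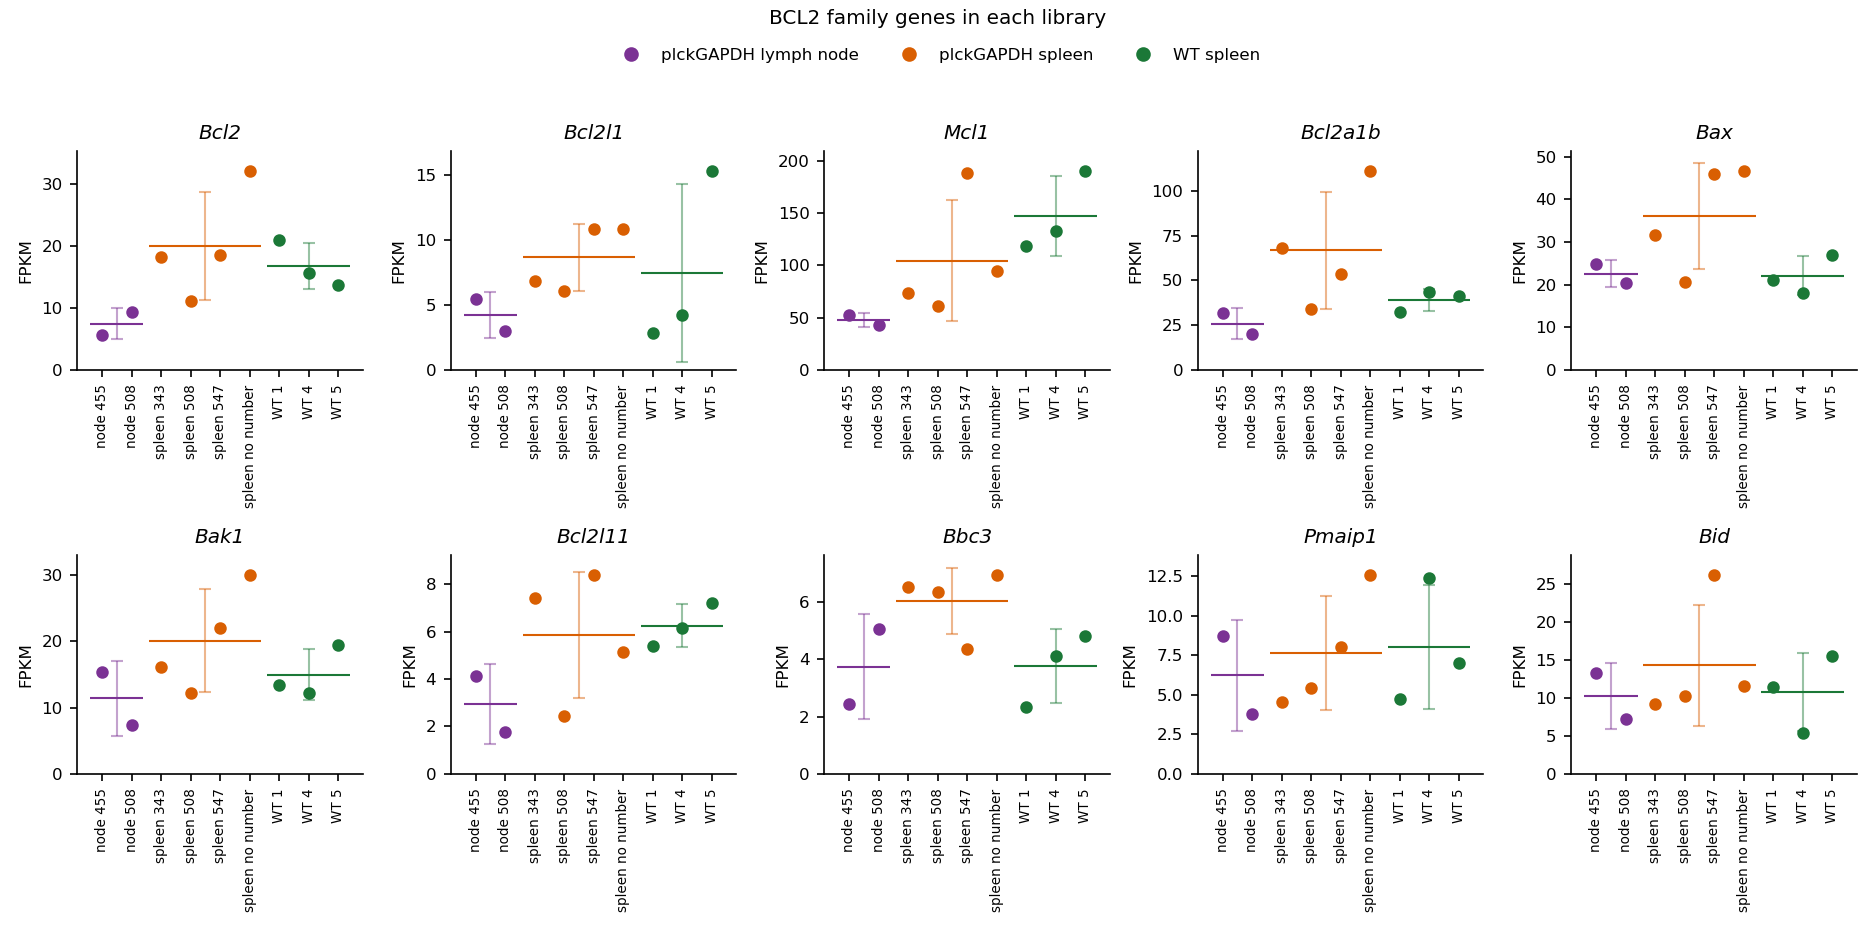
FPKM of the 10 members in each library (1 point per library; line, group mean; bar, SD), with plckGAPDH lymph nodes in purple, plckGAPDH spleens in orange and WT spleens in green. In none of the 10 panels do the plckGAPDH spleens lie wholly above or wholly below the WT spleens, and in Mcl1, Bcl2, Bcl2a1b and Bcl2l1 both lymph nodes lie under every plckGAPDH spleen.

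No member passed the test between plckGAPDH and WT spleens. With limma on log2(FPKM + 1), 0 of the 10 members reached a false discovery rate (FDR) below 0.05. An unadjusted p below 0.05 was reached by 0 as well, and Bbc3 had the lowest FDR, 0.771. Among all 12607 genes tested, 1.44% passed the FDR and 8.85% the unadjusted threshold. The 1.44% depended on immunoglobulin and T cell receptor segments. With these left out, 0 of 12359 genes passed the FDR. In 0 of the 10 members were the groups without overlap, against 3.39% of all genes with all plckGAPDH spleens higher and 3.88% with all lower. The log2 fold changes of 7 members were positive and of 3 negative, with a median of 0.36, beside a median of 0.02 over all genes tested. All 10 genes passed the filter on low values in both comparisons, so the counts cover every member. The 95% intervals all included 0. They reached above a log2 fold change of 1 in 7 members and below -1 in the other 3 (Mcl1, Bcl2l11 and Pmaip1), so a 2-fold change lay inside the interval of all 10. FPKM per gene do not separate isoforms, which for Bcl2l1, Mcl1 and Bcl2l11 can differ in their effect on survival.

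Among the survival genes, Bcl2 (chr1:106538178-106714274, minus strand, here and below in GENCODE M21 on mm10), the founding member of the family, was at 18.2, 11.2, 18.6 and 32.1 FPKM in plckGAPDH spleens 343, 508, 547 and the unnumbered spleen, against 21.0, 15.7 and 13.7 FPKM in WT spleens 1, 4 and 5. The transgenic spleens held both the lowest and the highest value, and the WT range lay within theirs. The means were 20.02 ± 8.75 FPKM (SD, n = 4) in plckGAPDH and 16.8 ± 3.74 FPKM (SD, n = 3) in WT spleens. The fitted log2 fold change was 0.17 (95% interval -0.74 to 1.08, SE 0.42, limma FDR 0.991). Without the unnumbered spleen the sign turned, at -0.08.

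Mcl1 (chr3:95658788-95663176, plus strand), whose protein is short-lived and needed by many blood cells, was at 74.1, 61.6, 189 and 94.7 FPKM in plckGAPDH spleens 343, 508, 547 and the unnumbered one, against 118, 133 and 190 FPKM in WT spleens 1, 4 and 5. In 3 of the 4 transgenic spleens it lay below all WT spleens, and spleen 547 lay beside WT spleen 5. The log2 fold change was -0.59 (SE 0.48, interval -1.65 to 0.46, limma FDR 0.885), and -0.92 without spleen 547.

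Bcl2l1 (chr2:152780668-152831728, minus strand), whose main product BCL-xL protects maturing red cells and activated lymphocytes, was at 6.81, 6.08, 10.9 and 10.9 FPKM in the plckGAPDH spleens, in the same order, against 2.84, 4.22 and 15.3 FPKM in WT spleens 1, 4 and 5. The WT spleens thus held both extremes. WT spleen 5, with the highest value, is also the library with the erythroid sum of 74191 FPKM, whereas WT spleens 1 and 4 had erythroid sums of 72.1 and 1.93 FPKM. The log2 fold change was 0.45 (SE 0.49, interval -0.63 to 1.52, limma FDR 0.938), and 1.07 without WT spleen 5 (limma FDR 0.742), where every plckGAPDH spleen lay above both remaining WT spleens, as in 7.47% of all genes. The part of red cell precursors in this value was not tested.

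Bcl2a1b (chr9:89199209-89207827, plus strand), an A1 gene induced in activated lymphocytes and myeloid cells, was at 68.2, 34.1, 53.9 and 111 FPKM in plckGAPDH spleens 343, 508, 547 and the unnumbered one, against 32.4, 43.7 and 41.1 FPKM in WT spleens 1, 4 and 5. All plckGAPDH spleens except 508 lay above the WT spleens. The log2 fold change was 0.65 (SE 0.46, interval -0.35 to 1.64, limma FDR 0.834). Bcl2a1d followed Bcl2a1b across the 9 libraries with a Pearson correlation of 0.933 on the log2(FPKM + 1) scale, while Bcl2a1a did so with 0.434. These libraries share their scaling, and the genes share reads. Bcl2a1d was at 31.7, 21.3, 47.4 and 82.2 FPKM in the plckGAPDH spleens, against 19.96, 28.5 and 22.3 FPKM in the WT spleens, again highest in the unnumbered spleen. Bcl2a1a had its lowest value of all libraries, 3.14 FPKM, in spleen 547, where Bcl2a1d had its second highest. The 4th gene of the group in the table, Bcl2a1c, stayed between 0.11 and 1.20 FPKM.

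The pore formers Bax and Bak1 moved most alike of the pore-forming and BH3-only members, with a correlation of 0.857 across the 9 libraries. Bax (chr7:45461697-45466898, minus strand) was at 31.6, 20.7, 45.8 and 46.6 FPKM in plckGAPDH spleens 343, 508, 547 and the unnumbered one, against 21.1, 18.0 and 27.0 FPKM in WT spleens 1, 4 and 5. Only spleen 508 fell inside the WT range. The log2 fold change was 0.64 (SE 0.42, interval -0.27 to 1.54, limma FDR 0.805). Bak1 (chr17:27019810-27029009, minus strand) was at 16.1, 12.2, 22.0 and 30.0 FPKM in these plckGAPDH spleens and at 13.4, 12.1 and 19.4 FPKM in the WT spleens (log2 fold change 0.35, SE 0.41, limma FDR 0.941).

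Both pore formers depended on how the libraries were scaled. After median-of-ratios scaling, which brings the typical gene to the same level in each library, Bax was at 28.8, 26.2, 32.8 and 35.7 scaled FPKM in the plckGAPDH spleens and at 16.6, 20.6 and 20.2 in the WT spleens, so that the groups no longer overlapped. The scaled FPKM printed here use factors from all 9 libraries, whereas the scaled fit and overlap counts use factors from the 7 spleens alone. In that limma fit Bax was the member with an unadjusted p below 0.05, as 13% of all genes had, and 1.12% of all genes passed the FDR. Its log2 fold change in the scaled spleens was 0.68 (SE 0.21, interval 0.20 to 1.15, unadjusted p of 0.0114 from limma, limma FDR 0.238). Bak1 was at 14.7, 15.4, 15.8 and 22.9 scaled FPKM in the plckGAPDH spleens and at 10.5, 13.9 and 14.5 in the WT spleens, with a limma FDR of 0.509. These were the 2 members without overlap in the scaled spleens, where 6.45% of all genes lay wholly higher and 6.62% wholly lower. With columns scaled to the sum of nuclear protein-coding genes instead, the groups overlapped in all 10 members, while 7.2% of all genes lay wholly higher. Neither gene passed the FDR on any of the 3 scales.

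**Figure D2:**
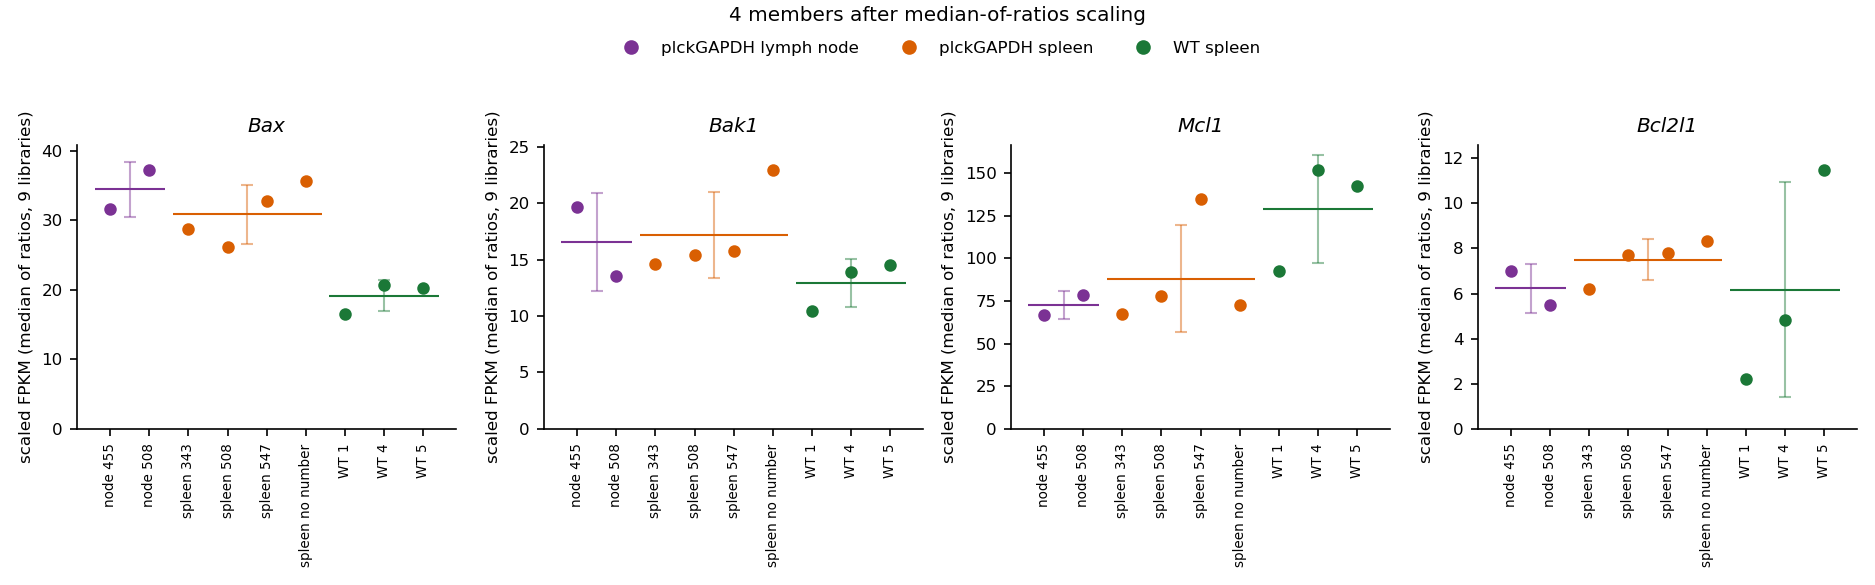
Bax, Bak1, Mcl1 and Bcl2l1 after median-of-ratios scaling over the 9 libraries (1 point per library; line, group mean; bar, SD). All plckGAPDH libraries of Bax lie above all WT spleens (26.2 or more against 20.6 or less), while WT spleens hold the lowest and the highest Bcl2l1.

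The BH3-only genes had fold changes of both signs. Bbc3 (PUMA; chr7:16308393-16318205, plus strand) was at 6.54, 6.34, 4.35 and 6.95 FPKM in plckGAPDH spleens 343, 508, 547 and the unnumbered one, against 2.35, 4.13 and 4.83 FPKM in WT spleens 1, 4 and 5. Spleen 547 alone overlapped the WT spleens. The log2 fold change was 0.58 (SE 0.36, interval -0.19 to 1.36, limma FDR 0.771). Bcl2l11 (BIM; chr2:128126038-128162547, plus strand) was at 7.42, 2.43, 8.40 and 5.14 FPKM in the plckGAPDH spleens and at 5.42, 6.15 and 7.22 FPKM in the WT spleens, so the WT spleens lay between the transgenic ones (log2 fold change -0.18, SE 0.41, limma FDR 0.988).

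Pmaip1 (NOXA; chr18:66458533-66465565, plus strand) was at 4.57, 5.44, 8 and 12.6 FPKM in the plckGAPDH spleens, against 4.73, 12.4 and 7 FPKM in the WT spleens, nearly the same range in both groups (log2 fold change -0.06, SE 0.43, limma FDR 0.996). Bid (chr6:120891930-120916853, minus strand), which links death receptors to mitochondria when caspase-8 cuts its protein, was at 9.19, 10.2, 26.2 and 11.6 FPKM in the plckGAPDH spleens, against 11.4, 5.32 and 15.5 FPKM in the WT spleens. Spleen 547 stood apart from the other 3 transgenic spleens. The log2 fold change of Bid was 0.37 (SE 0.47, limma FDR 0.959), and -0.02 without WT spleen 4. Spleen 547 also had the highest sum of 7 cell cycle markers, at 531 FPKM against 37.1 to 307 in the other 8 libraries. The unnumbered spleen, at 307 FPKM in that sum, had Bid at 11.6 FPKM. WT spleen 5, with the lowest sum of 37.1 FPKM, had Bid at 15.5 FPKM. The part of cycling cells in the Bid level of spleen 547 was not tested.

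With sample quality weights, 4 members passed the test as higher in plckGAPDH spleens: Bbc3 (log2 fold change 1.12, limma FDR 0.00762), Bcl2a1b (1.31, limma FDR 0.0102), Bax (0.89, limma FDR 0.0239) and Bcl2l1 (1.39, limma FDR 0.0242). In that fit 1863 of the 12607 genes tested passed, 891 of them higher and 972 lower in plckGAPDH spleens. Its weights were 24.8 for WT spleen 1 and between 0.296 and 2.04 for the rest, so the transgenic spleens were set almost against 1 library. WT spleen 1 was the lowest WT spleen for Bbc3, Bcl2a1b and Bcl2l1.

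**Figure D3:**
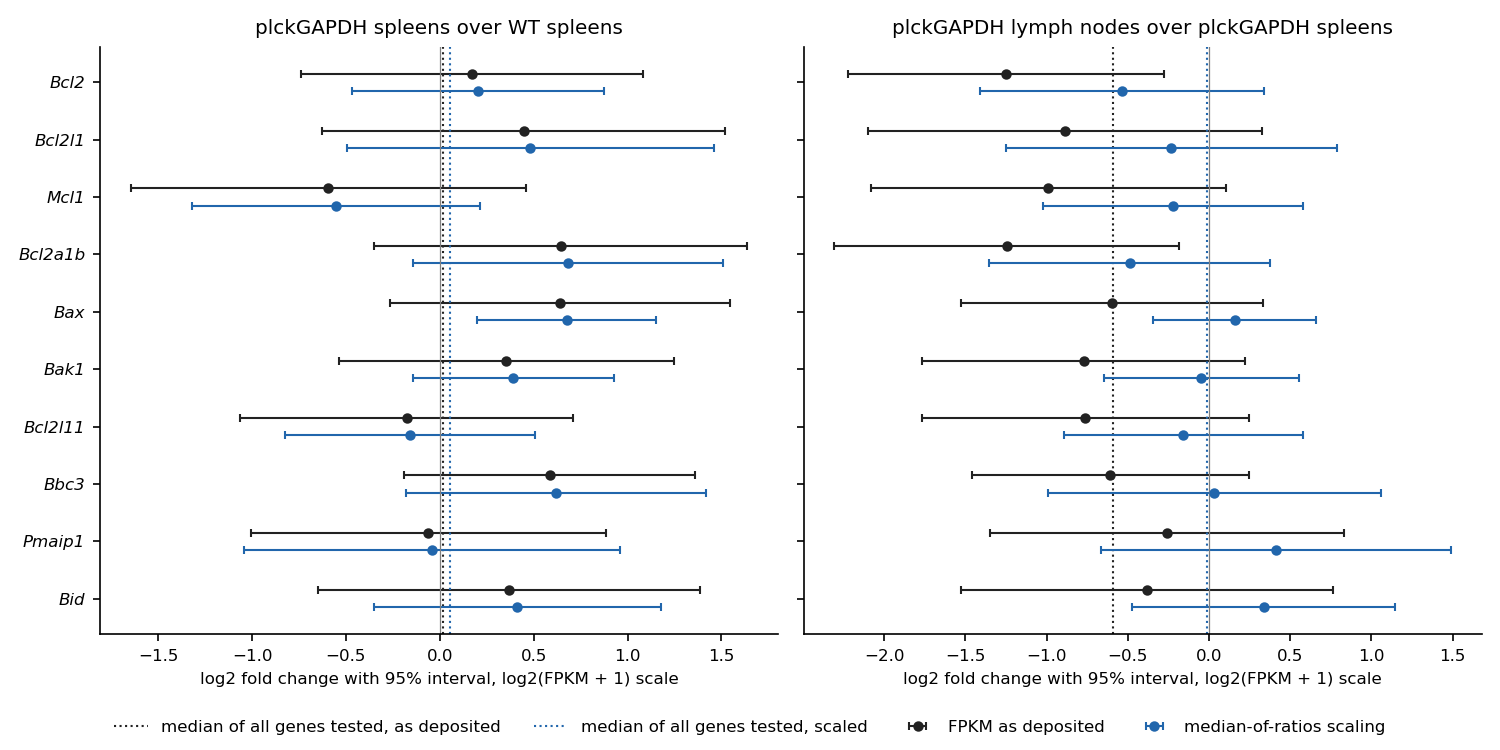
Log2 fold changes of the 10 members with 95% intervals, plckGAPDH spleens over WT spleens (left) and plckGAPDH lymph nodes over plckGAPDH spleens (right), for FPKM as deposited (black) and after median-of-ratios scaling (blue); dotted lines are the medians of all genes tested. On the right all 10 deposited folds are negative beside a median of -0.59 over all genes, and after scaling they lie on both sides of 0.

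All 10 members were lower in the plckGAPDH lymph nodes than in the plckGAPDH spleens on average, and so were most other genes. In the limma fit of 3 groups over 9 samples, 0 of 10 members passed the FDR, beside 0.0146% of the 13682 genes tested. An unadjusted p below 0.05 was reached by 2 members, Bcl2 and Bcl2a1b, and by 11.3% of all genes. The members' median log2 fold change was -0.77, beside -0.59 over all genes, of which 89.1% had negative fold changes. Both nodes lay below all 4 spleens in 4 members, beside 30% of all genes, and above them in 0, beside 0.49% of all genes. This comparison and that of the spleens share the 4 plckGAPDH spleens, so their values are not independent.

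The 4 members in question were the survival genes, but this split rested on spleen 508. Without that spleen, Bax, Bak1 and Bcl2l11 also lay wholly below the plckGAPDH spleens, as did 52.9% of all genes. Bcl2 was at 5.68 and 9.30 FPKM in lymph nodes 455 and 508, against 11.2 to 32.1 FPKM in the plckGAPDH spleens, which gave -1.25 on the log2 scale (SE 0.44, interval -2.22 to -0.28, limma FDR 0.359). Mcl1 was at 52.4 and 42.8 FPKM in the nodes, against 61.6 to 189 FPKM in these spleens, at -0.99 (SE 0.50, limma FDR 0.359). Bcl2a1b was at 31.9 and 19.96 FPKM in the nodes, against 34.1 to 111 FPKM, at -1.24 (SE 0.48, limma FDR 0.359). All 3 gaps to spleen 508 were small beside the distance from the lowest to the highest spleen.

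Bcl2l1 was at 5.49 and 2.99 FPKM in nodes 455 and 508, against 6.08 to 10.9 FPKM in the plckGAPDH spleens (log2 fold change -0.89, SE 0.55, limma FDR 0.364). The summed erythroid markers were at 5.08 and 7.06 FPKM in the nodes, against 30.2 to 2203 FPKM in these spleens, and those of neutrophils at 42.9 and 55.3 FPKM, against 576 to 1348 FPKM. The part of these cells in the lower node values was not tested.

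The pore formers and BH3-only genes overlapped between nodes and plckGAPDH spleens. Bax was at 24.8 and 20.3 FPKM in nodes 455 and 508, against 20.7 to 46.6 FPKM in the spleens (log2 fold change -0.60, limma FDR 0.384), and Bak1 at 15.4 and 7.40 FPKM, against 12.2 to 30.0 FPKM (-0.77, limma FDR 0.361). Bcl2l11 was at 4.15 and 1.76 FPKM in the nodes and at 2.43 to 8.40 FPKM in the spleens, and Bbc3 at 2.45 and 5.05 FPKM in the nodes and at 4.35 to 6.95 FPKM in the spleens. Pmaip1 was at 8.73 and 3.76 FPKM in the nodes and at 4.57 to 12.6 FPKM in the spleens, and Bid at 13.3 and 7.16 FPKM in the nodes and at 9.19 to 26.2 FPKM in the spleens. The nodes differed from each other by more than 2 times in Bcl2l11, Bbc3, Pmaip1 and Bak1.

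Scaling took most of the difference away. After median-of-ratios scaling the median over all genes was -0.01, and the members' median -0.10, with 6 negative and 4 positive log2 fold changes. Bcl2 and Bcl2a1b remained lowest among the members, at -0.53 (SE 0.38, limma FDR 0.995) and -0.49 (SE 0.38, limma FDR 0.995). Bax, Bbc3, Pmaip1 and Bid changed sign, to 0.16, 0.03, 0.41 and 0.34. On that scale 0 members reached the FDR or an unadjusted p below 0.05 in limma, beside 0.0074% and 3.13% of all genes. No member was without overlap, while 3.4% of all genes lay wholly higher and 5.04% wholly lower.

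Animal 508, the only one with both tissues, gave a comparison within 1 mouse and without replicates. All 10 members were lower in its node than in its spleen, as were 90.6% of the 11097 genes at 1 FPKM or more in either library, whose median log2 ratio was -0.43. The log2 ratios given here were taken on FPKM + 1. Bcl2l1 (2.99 FPKM in the node and 6.08 in the spleen, a log2 ratio of -0.83), Bcl2a1b (-0.75) and Bak1 (-0.65) lay furthest below that median. Bax was nearly equal in node and spleen, at 20.3 and 20.7 FPKM (-0.03), and Bcl2 was at 9.30 and 11.2 FPKM (-0.24).

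Ratios between members within a library do not depend on its scaling. They are given as descriptions. The ratio of Bcl2 to Bax was 0.229 and 0.458 in the lymph nodes, 0.574, 0.542, 0.406 and 0.689 in plckGAPDH spleens 343, 508, 547 and the unnumbered one, and 0.992, 0.872 and 0.508 in WT spleens 1, 4 and 5. WT spleens 1 and 4 lay above all 6 transgenic libraries, and WT spleen 5 lay within their range.

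The ratio of Bax to Bak1 was 1.61 and 2.74 in the nodes, 1.96, 1.70, 2.08 and 1.56 in the plckGAPDH spleens and 1.58, 1.49 and 1.39 in the WT spleens, with the groups of spleens overlapping through the unnumbered spleen. Bcl2 to Bcl2l1 was 1.03 and 3.11 in the nodes and 1.71 to 2.95 in the plckGAPDH spleens, but 7.38, 3.73 and 0.896 in WT spleens 1, 4 and 5, which enclosed all transgenic libraries. Mcl1 to Bcl2l11 was 12.6 and 24.3 in nodes 455 and 508, and nearly level in the WT spleens at 21.6 to 26.4. In the plckGAPDH spleens it ran from 9.99 to 25.4, with spleen 343 the lowest. Mcl1 to Pmaip1 was 6.00 and 11.4 in the nodes, 7.52 to 23.6 in the plckGAPDH spleens and 10.7 to 27.2 in the WT spleens. Bcl2l1 to Bax was 0.221 and 0.147 in the nodes, 0.215 to 0.294 in the plckGAPDH spleens and 0.134 to 0.567 in the WT spleens.

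**Figure D4:**
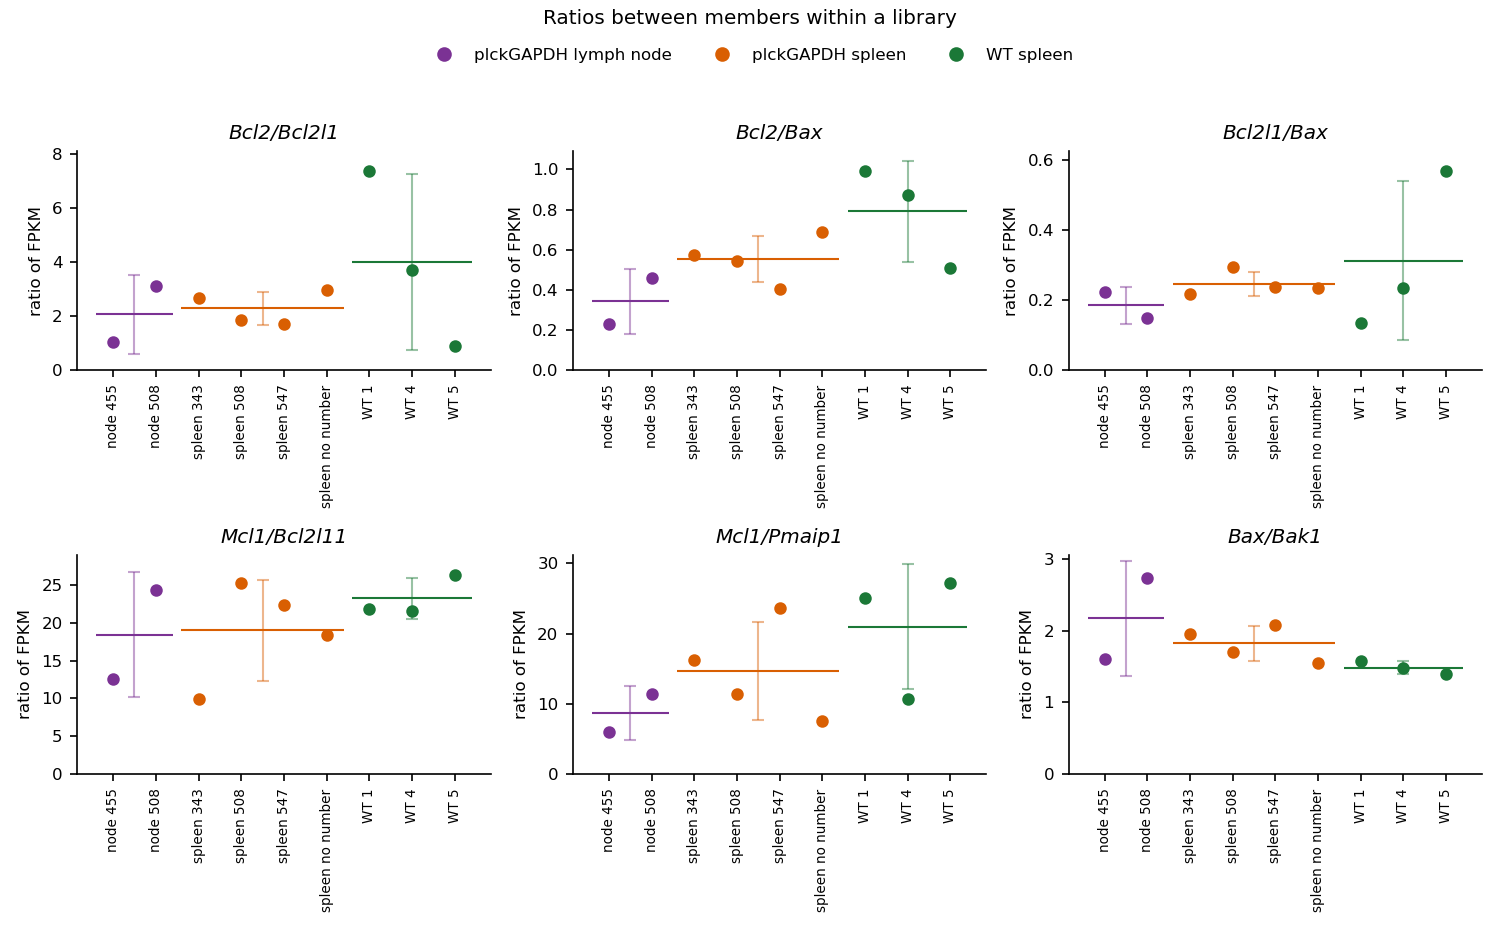
Ratios of FPKM between pairs of members in each library (1 point per library; line, group mean; bar, SD). Bcl2 to Bax lies at 0.229 to 0.689 in the 6 plckGAPDH libraries and at 0.508 to 0.992 in the WT spleens, and the WT spleens spread most widely in Bcl2 to Bcl2l1.

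Among themselves, the members correlated from -0.140 (Bbc3 with Bid) to 0.860 (Bcl2a1b with Bak1) over the 9 libraries, as Pearson correlations of log2(FPKM + 1) given as a description. Mcl1 and Bcl2l11, a survival protein and a BH3-only protein that bind each other, reached 0.811. The lowest Mcl1 values (node 508, node 455 and spleen 508) came from the 3 libraries with plasma cell sums of 1938 FPKM or more. Node 508, spleen 508 and node 455 also had the lowest Bcl2l11. These sums were mostly Jchain, and the other markers did not all follow. Spleen 547 lay above both nodes in Prdm1, Irf4 and Tnfrsf17, between them in Xbp1 and below both in Jchain and Sdc1. Its Mcl1 was at 189 and its Bcl2l11 at 8.40 FPKM. Nodes 455 and 508 and spleen 508 are also the 3 libraries with the smallest scaling factors (0.546 to 0.790, against 0.875 to 1.40 in the others). The part of plasma cells or of scaling in these values was not tested.

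Over the same 9 libraries and 12834 genes, the genes most like each member were as follows, with the Pearson correlation of log2(FPKM + 1) for the closest. Bcl2 was followed most closely by Dvl3 (0.967), Pcca and Gimap4, Bcl2l1 by Atox1 (0.979), Fbxo6 and Smox, and Mcl1 by Etv3 (0.978), Ugcg and Klf6. For Bcl2a1b these genes were Stx11 (0.968), Paqr4 and Mink1, for Bax Prodh (0.979), Slc25a22 and Cul7, and for Bak1 Capns1 (0.986), Cfap36 and Fam120a. Cyth3 (0.986), Cyth4 and Zfp217 were most like Bcl2l11, and Gtf2h4 (0.974), Trappc2l and Znhit6 most like Bid. The closest genes of Pmaip1 and Bbc3 were less close, with Cabp4 (0.940), Oas1g and Ms4a6d for Pmaip1 and Prg3 (0.917), Slc15a2 and Tmem181a for Bbc3. With so many genes and 9 libraries, 2 of them from 1 animal, correlations of this size describe these libraries only.

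The wider apoptosis pathway, a list of 45 other genes, showed no called change either. Of these, 40 were tested between the spleens and 0 passed an FDR of 0.05 in limma, with 23 positive and 17 negative log2 fold changes and a median of 0.10. All plckGAPDH spleens lay above all WT spleens in 2 genes and below in 1, which is 3 of 40 beside 7.27% of all genes. The genes not tested were Bcl2l10, Bok, Bik, Hrk and Trp73, which did not reach 1 FPKM in 3 spleens. The genes named next were chosen after their values were seen, among the 4 with an unadjusted p under 0.05.

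Casp6, an executioner caspase, was at 2.02, 2.10, 3.41 and 3.37 FPKM in the plckGAPDH spleens and at 5.30, 4.99 and 7.27 FPKM in the WT spleens, at -0.89 (SE 0.34, limma FDR 0.407). The groups did not overlap.

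Birc2, which encodes the inhibitor of apoptosis cIAP1, was at 99.3, 37.6, 35.6 and 43.9 FPKM in the plckGAPDH spleens and at 25.2, 24.9 and 21.1 FPKM in the WT spleens, at 1.03 (SE 0.44, limma FDR 0.513). Birc5, which encodes survivin and is a gene of dividing cells, was at 6.38, 14.5, 48.2 and 34.4 FPKM in the plckGAPDH spleens and at 5.72, 9.47 and 6.78 FPKM in the WT spleens, at 1.37 (SE 0.58, limma FDR 0.502). Its 2 highest values were in spleen 547 and the unnumbered spleen, where the cell cycle sums were 531 and 307 FPKM, against 37.1 to 82.0 in WT spleens.

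Of the 10 other BCL2 family genes tested, 7 had positive and 3 negative folds between the spleens, with a median of 0.12, and Bcl2a1d was highest at 0.77 (limma FDR 0.785). The 6 genes of mitochondrial release and the apoptosome had a median of 0.28, and Cycs, which encodes cytochrome c, was at -0.09. No regulator of the members passed the test. Trp53 was at -0.11 (limma FDR 0.994), its targets Mdm2 and Cdkn1a at 0.45 and 0.55 (limma FDR 0.887 and 0.843), and Foxo3, an activator of the BIM gene, at -0.24 (limma FDR 0.986). In the lymph nodes 38 of the 40 genes had negative folds, beside 89.1% of all genes. In limma 0 passed the FDR and 5 had an unadjusted p below 0.05, beside 0.0146% and 11.3% of all genes, with a median of -0.71 beside -0.59 for all genes.

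**Figure D5:**
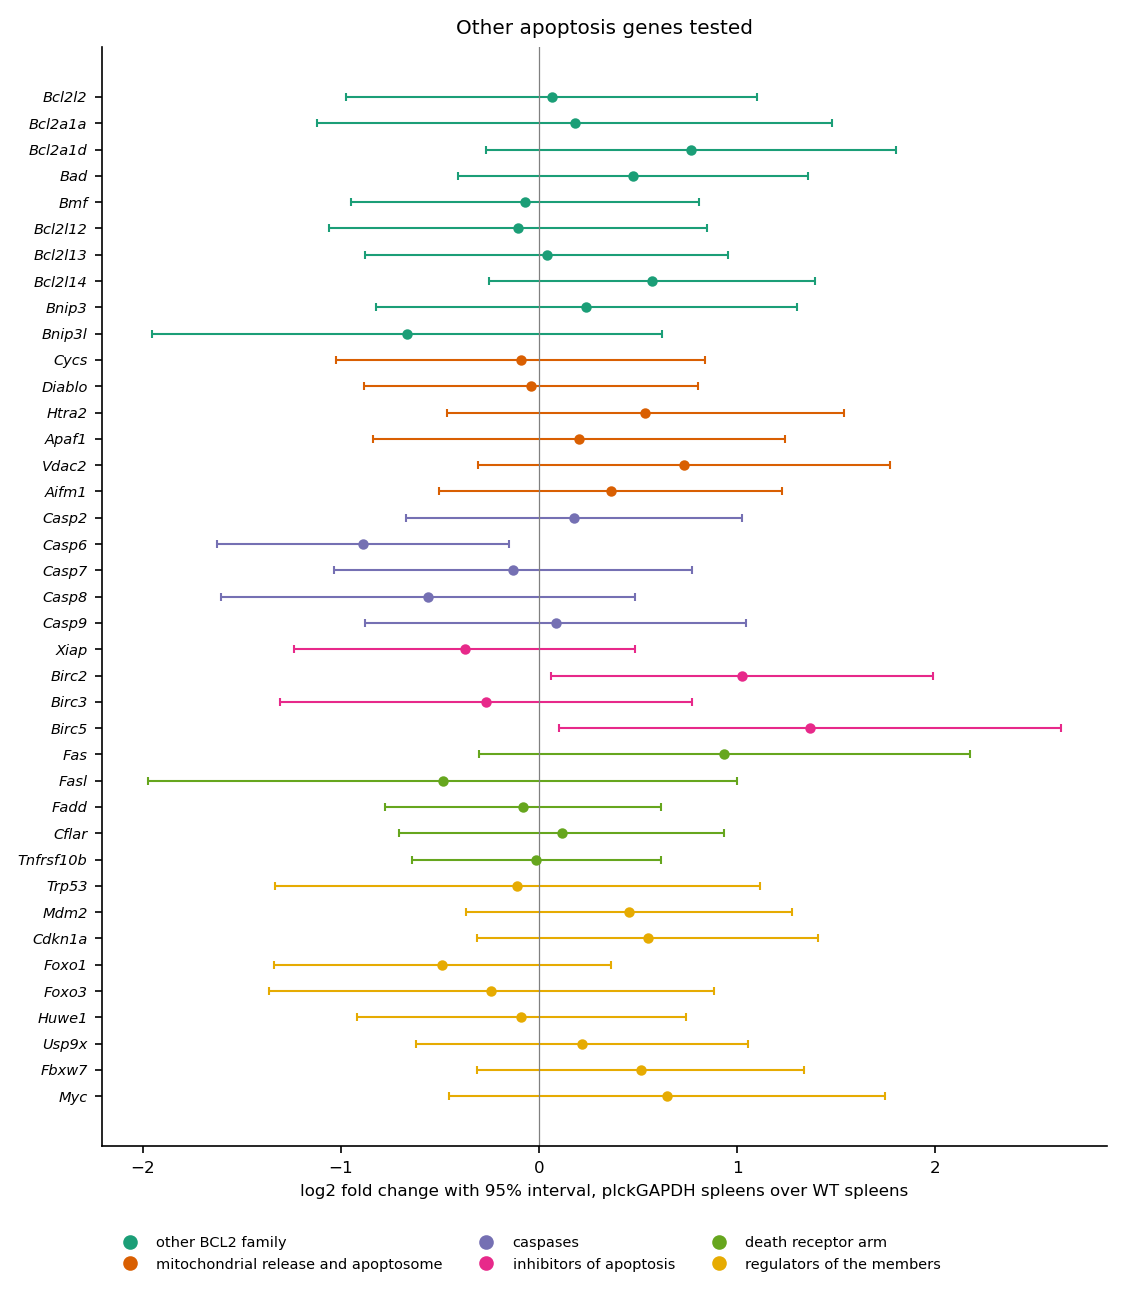
Log2 fold changes with 95% intervals of other apoptosis genes tested, plckGAPDH spleens over WT spleens on the log2(FPKM + 1) scale, coloured by the list they belong to. Birc2 and Birc5 lie above 0 and Casp6 below 0 with their whole interval, and none of the genes shown passed an FDR of 0.05.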

How the data were processed

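Values are FPKM per gene and library, deposited by the authors with 2 decimals. Among the tools in the submitters' processing notes are STAR (2.4.0a), Subread (1.5.0-p3) with featureCounts, Bowtie2 (2.2.6) and RSEM, with build mm10. Not given in the sources used here is the tool behind the FPKM, nor the annotation. Depth was estimated from low FPKM of genes with 1 transcript in GENCODE M21. Of these values 79.4% to 83.8% lay at whole fragments (within rounding and 0.03 fragments), against 19.3% to 21.0% by chance. Estimated fragments entered no test, and no counting interval is given.

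Tests used limma (3.58.1, R 4.3.3), two-sided, on log2(FPKM + 1) with the prior variance following intensity. FDR is Benjamini-Hochberg over all genes at 1 FPKM or more in 3 of 7 spleens, or in 2 of 9 samples for the fit with lymph nodes. The log2(FPKM + 1) scale understates changes of low genes. Alternatives were a pseudocount of 0.1, no filter, 2 scalings, sample weights, no intensity trend, receptor segments left out and libraries left out. Fits were also run on simulated data with independent noise per gene and known changes in more abundant genes only. Those runs held no shifts in library scaling or cell content, and no result here rests on them. The members, pathway list and markers were chosen with earlier results of these data known. The rule for named genes took the members, pathway genes that pass (none did) and, per member, the 3 most correlated genes; the other pathway genes named were chosen after their values were seen. Identical values made up at most 0.257% in any of 36 pairs of libraries. A gene of the pathway list is counted but not reported here by name.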

Additional observations from a re-analysis of the deposited data

Results flagged for a closer look

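Among 58 sets of 4 plckGAPDH spleens examined for members, other pathway genes and ratios, 5 held a library far from the other 3, and chance flags about 1 in 20. Bid was at 26.17 FPKM in spleen 547. Birc2 was at 99.3 FPKM and Cflar, which encodes the caspase-8 inhibitor FLIP, at 52.71 FPKM in spleen 343. Trp73, a relative of Trp53, was at 1.68 FPKM in spleen 508. Fbxw7, whose product marks MCL1 for degradation, was at 8.83 FPKM in the unnumbered spleen, below the other plckGAPDH spleens.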

How the results depend on the processing

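Between plckGAPDH and WT spleens 181 genes passed the FDR, against 74 with no filter, 1863 with sample weights, 0 without receptor segments (limma), 12 without WT spleens 4 and 5, and 72 to 265 with 1 library left out. Sample weights alone called members (4 of 10) and other pathway genes (10 of 40), in the fit where 1863 of 12607 genes passed. Folds changed sign with weights (Bcl2l11 0.026, Pmaip1 0.80) and without WT spleens 4 and 5 (Bcl2 -0.15, Pmaip1 0.51). With 1 library left out they ran from -0.080 to 0.40 for Bcl2, -0.36 to 0.12 for Bcl2l11, -0.35 to 0.27 for Pmaip1 and -0.023 to 0.67 for Bid. Between lymph nodes and plckGAPDH spleens 2 genes passed, against 5 with a pseudocount of 0.1, 5 with no filter, 1 with either scaling, 7 with weights and 0 to 28 with 1 library left out. Signs turned for Bax 0.16, Bbc3 0.033, Pmaip1 0.41 and Bid 0.34 after median-of-ratios scaling, and for Pmaip1 0.23 and Bid 0.14 after protein-coding scaling. With 1 library left out Pmaip1 ran from -0.77 to 0.26 and Bid from -0.79 to 0.026. Where 1 node or 1 WT spleen is left, it is assumed to vary like the other groups. The cause of these shifts was not tested. No paired analysis was possible because the groups share only the number 508.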
